A study of Mus musculus with 6 samples.

Results

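The miR-297, miR-466, miR-467 and miR-669 families were followed in small RNA libraries of the right SN, from hα-syn(A53T) mice with and without Ang-(1-7). Members were taken by name from the table of annotated miRNAs, and 76 of its 1393 entries belonged to these 4 families. Several entries held exactly the same values in every library, in 11 sets, and each set was counted once, which left 63 members. A set is named below by its first entry, so that miR-669a-3p stands for miR-669a-3p and miR-669o-3p.

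Ang-(1-7)-treated hα-syn(A53T) mice were compared with vehicle-treated hα-syn(A53T) mice, with 3 libraries each. The treated animals were given Ang-(1-7) above the SN from osmotic pumps at 1.1 nmol and 0.25 μL per hour for 4 weeks, and the others were given artificial cerebrospinal fluid at the same rate and for the same time. All the animals carried human α-syn with the A53T mutation. The labels call them an overexpressing strain, whereas the methods describe AAV-hα-syn(A53T) given into the right SNpc of male C57BL/6J mice at 8 weeks of age, with no promoter named. Neither source says whether a library came from a single mouse or from pooled mice, so p-values here rest on how libraries varied, and that variation may be technical.

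miRNAs are short RNAs cut from the 2 arms, 5p and 3p, of a hairpin, and they lower the stability or translation of messenger RNAs that pair with their seed. The 4 families are known from rodents, where most of their hairpins lie in tandem copies within an intron of Sfmbt2, an imprinted Polycomb-related gene read mainly from the paternal copy. The cluster is known for its high level in the placenta, and its mature miRNAs are rich in alternating purine and pyrimidine repeats, so that many members differ by a few bases only.

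In GRCm38 (GENCODE vM21), Sfmbt2 spans chr2:10370510-10595253 on the plus strand. Within it, 72 hairpins of the 4 families lay between positions 10466663 and 10518279, all inside intron 10 of a protein-coding transcript with 23 exons, which runs from 10461473 to 10523944. Of the 76 entries, 60 had hairpins only in this intron, 5 had hairpins both there and elsewhere, 9 had hairpins only elsewhere, and 2 (both arms of miR-466a) were not matched. Another 45 annotated hairpins within the same bounds had no name of these families, and no other annotated miRNA of the table was matched to them.

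Mature sequences from RefSeq (GRCm38.p6) were matched for 8 entries, all with hairpins outside Sfmbt2. They are shown because they display the 2 kinds of repeat found in these families, one rich in A and C and the other rich in G and U. Capitals mark the seed, bases 2 to 8 from the 5′ end.
miR-466i-3p, chr13:17747552-17747573 (+): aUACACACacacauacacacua
miR-466q, chr3:28419988-28420007 (+): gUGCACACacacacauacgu
miR-467f, chr11:69635419-69635439 (-): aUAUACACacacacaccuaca
miR-467g, chr5:34732872-34732892 (-): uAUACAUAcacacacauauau
miR-466j, chr10:60960802-60960824 (+): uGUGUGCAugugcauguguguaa
miR-466k, chr3:85467396-85467418 (+): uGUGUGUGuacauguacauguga
miR-467h, chr9:115381898-115381919 (+): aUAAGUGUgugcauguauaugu
miR-669n, chr3:115979905-115979924 (+): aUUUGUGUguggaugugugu

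The first 4 of these sequences were 70.0% to 86.4% A and C, and the last 4 were 68.2% to 90.0% G and U. No seed was shared by any of the 8, so members with the same family name need not share one. The run ACACACAC was searched on the mature strand alone and was found in 4 of 1679 RefSeq mature miRNAs (0.238%), all of them members (miR-466i-3p, miR-466q, miR-467f and miR-467g). The run GUGUGUGU was found in 7 of the 1679 (0.417%), of which 1, miR-466k, was among the 8 entries with a sequence. The other entries were not searched. The hairpin of miR-466q lay in an intron of Tnik on the same strand. Those of miR-466i, miR-467f, miR-467g and miR-669n lay in introns of Cdk13, Fxr2, Grk4 and Slc30a7 on the opposite strand, and miR-466k lay likewise in Gm37240. The hairpins of miR-466j and miR-467h overlapped no other annotated gene.

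The annotated miRNAs held 14796519 to 17088611 reads per library, and 1067 to 1132 of them were detected. Values are normalized counts, reads scaled by a factor for each library (0.908 to 1.10), so that 1 read is worth about 1. Libraries of the same group differed by far more than counting error (chi-square statistic over its degrees of freedom, 292 to 1804), and none was treated as a copy of another. The neuronal list (miR-9-5p, miR-124-3p, miR-128-3p and miR-138-5p) was present at 2966296 to 4048230 summed normalized counts with Ang-(1-7) and 2702295 to 3020376 without it. Of the 4, limma called miR-138-5p higher with Ang-(1-7) (log2 fold change 1.24, adjusted p = 0.0167) and miR-124-3p lower (log2 fold change -0.89, adjusted p = 0.0386).

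The 4 families were a small part of the small RNA of the SN. Of the 63 members, 53, 54 and 54 were detected in the Ang-(1-7) libraries, against 55, 57 and 55 in the hα-syn(A53T) libraries. After members within 2 reads of each other in every library were also counted once, which left 61, the families took 0.0325%, 0.0489% and 0.0361% of annotated reads with Ang-(1-7) and 0.0385%, 0.0387% and 0.0342% without it. Levels were very uneven. By this count, miR-467a-5p with its near copy miR-467b-5p was alone above 1000 normalized counts and held 49.8% of the summed mean level, 8 members between 100 and 1000 held 37.1%, 23 between 10 and 100 held 11.7%, and 20 lay between 1 and 10. The other 9 had a mean under 1, among them miR-466l-3p, known to protect IL-10 messenger RNA in macrophages, with a single read in hα-syn(A53T) replicate 2. A count of 0 in a library allows up to 3 reads of the total and covers counting error only.

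The summed level of the families overlapped between the groups. With near copies counted once it was 5033, 8572 and 5434 normalized counts with Ang-(1-7), against 5846, 5957 and 5921 without it, with means of 6346 ± 1938 for Ang-(1-7) mice and 5908 ± 56.6 for hα-syn(A53T) mice (SD, n = 3 each). Ang-(1-7) replicate 2 stood above the other 5 libraries. The log2 ratio of the summed means was 0.10, and -0.17 without that library. With the near copies counted apart, as 63 members, the ratio was 0.22, and -0.12 without it.

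The groups were separated in the summed 3p arms and overlapped in the summed 5p arms. With near copies counted once, the summed 3p arms came to 688, 603 and 1244 normalized counts with Ang-(1-7), against 1349, 2074 and 1690 in hα-syn(A53T) libraries. Every Ang-(1-7) library lay under every hα-syn(A53T) library, and the means were 845 ± 348 for Ang-(1-7) mice and 1704 ± 363 for hα-syn(A53T) mice (SD, n = 3 each), a ratio of 0.496. The summed 5p arms stood at 4292, 7916 and 4084 with Ang-(1-7), against 4419, 3807 and 4152 without it, and these overlapped. The 3p arms thus made up 13.8%, 7.08% and 23.3% of both arms in the Ang-(1-7) libraries and 23.4%, 35.3% and 28.9% in the hα-syn(A53T) libraries. Ang-(1-7) replicate 3 lay nearest to the hα-syn(A53T) libraries, next to hα-syn(A53T) replicate 1. These sums are weighted towards the most abundant members. In Ang-(1-7) replicate 2, miR-467a-5p alone held 5612 of the 7916 in the 5p sum. No p was computed for these sums, since members were chosen with earlier results known. In bulk tissue, fewer cells of a type and less RNA per cell cannot be told apart.

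**Figure D1:**
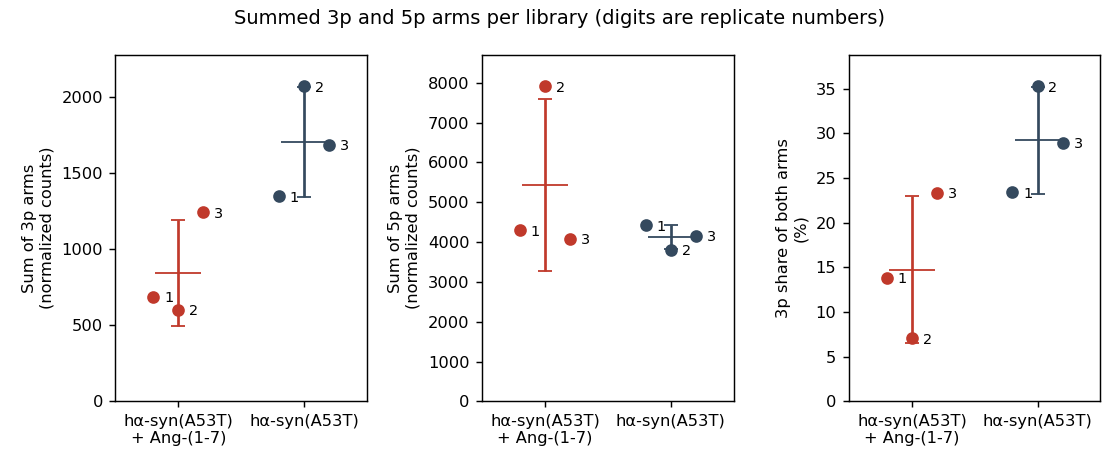
Summed normalized counts of the 3p arms (left) and 5p arms (middle) and the 3p share of both arms in percent (right) for each library, with near copies counted once. Points are libraries with their replicate numbers, and crosses with bars are means ± SD (n = 3). The 3p sums of the Ang-(1-7) libraries lie between 603 and 1244, all under the hα-syn(A53T) libraries at 1349 to 2074, whereas the 5p sums overlap.

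The groups were then compared miRNA by miRNA with limma on log2(normalized count + 1), over the 1065 annotated miRNAs that reached 1 normalized count in 3 or more libraries, with Benjamini-Hochberg adjustment over all of them. On this scale the change of members with few reads comes out too small. Of the 63 members, 54 entered the test. With Ang-(1-7), 4 of the 54 were lower and 0 higher at an adjusted p under 0.05, and all 4 were 3p arms. Over all 1065 miRNAs, 4.04% were called lower and 5.54% higher (9.58% in all). At an unadjusted p under 0.05, 14 members were lower (13 without miR-669e-3p, described below) and 0 higher, whereas 11.5% of all tested miRNAs were lower and 11.7% higher. Values did not overlap between the groups for 12 members that were lower (11 without miR-669e-3p) and 2 that were higher, against 14.0% lower and 14.2% higher among all tested miRNAs. The member counts rest on few libraries. Leaving out Ang-(1-7) replicate 1 or 2, or any hα-syn(A53T) replicate, left 0 members past the adjusted threshold in limma (12, 8, 9, 6 and 11 at an unadjusted p under 0.05), and leaving out Ang-(1-7) replicate 3 left 4.

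miR-669a-3p, whose hairpin is known to yield a miRNA that lowers MyoD in cardiac progenitors, fell with Ang-(1-7). Its normalized counts were 150, 155 and 300 with Ang-(1-7), against 361, 616 and 482 without it. The groups did not overlap, the lowest hα-syn(A53T) library being replicate 1 and the highest Ang-(1-7) library replicate 3. The log2 fold change was -1.31 (SE 0.33, limma adjusted p = 0.0386). It lost its call without Ang-(1-7) replicate 1 or 2 or any hα-syn(A53T) replicate (limma adjusted p = 0.0680 to 0.176) and had an adjusted p of 0.00853 without Ang-(1-7) replicate 3.

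miR-466a-3p, which shares its values with miR-466e-3p, stood at 89.9, 78.2 and 210 normalized counts with Ang-(1-7), against 249, 402 and 338 in hα-syn(A53T) libraries. It fell without overlap, with a log2 fold change of -1.50 (SE 0.38, limma adjusted p = 0.0386). miR-466b-3p, which stands for the 3p arms of miR-466b, miR-466c and miR-466p, differed from miR-466a-3p by at most 2 reads in any library and had a log2 fold change of -1.49 (limma adjusted p = 0.0386). These 5 names are therefore close to a single measurement, and with near copies counted once 3 members fell. Both lost their call when any of the 5 libraries named for miR-669a-3p was left out (limma adjusted p = 0.0757 to 0.165), and with a pseudocount of 0.1 (limma adjusted p = 0.0518).

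miR-466m-3p, from the first hairpin of the cluster, also fell, on few reads. It had 2, 2 and 3 reads with Ang-(1-7), against 8, 15 and 8 reads without it, with no overlap. Its log2 fold change was -1.71 (SE 0.44, limma adjusted p = 0.0398). With the replicate number as a block its adjusted p was 0.0568, and with a pseudocount of 0.1 it was 0.0520, so that it lost its call in both. It also lost it whichever library was left out (limma adjusted p = 0.0578 to 0.249).

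**Figure D2:**
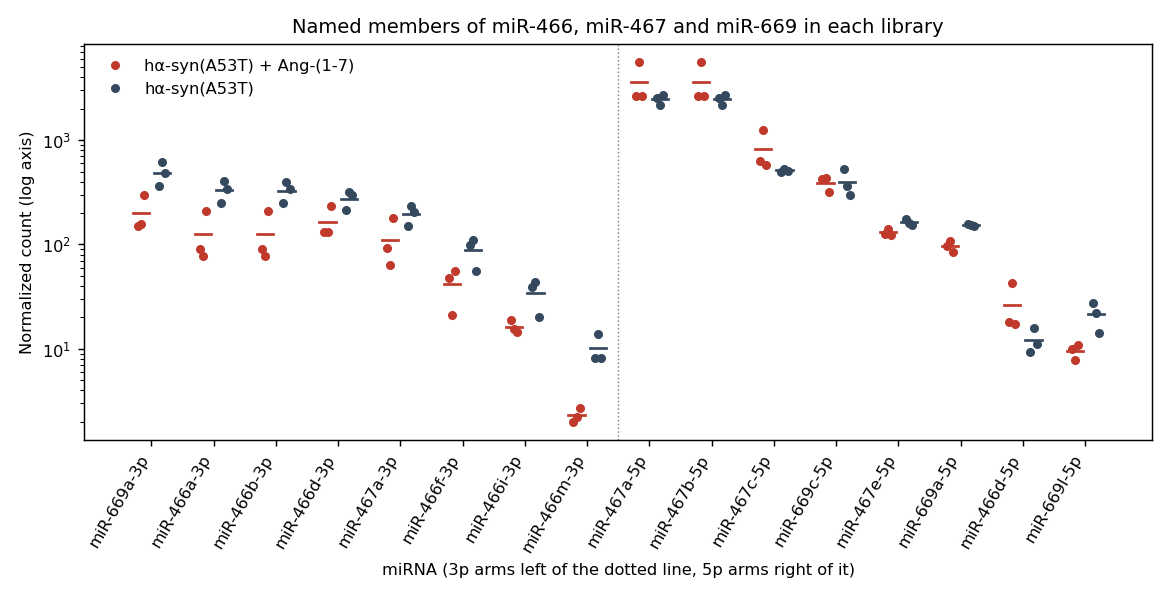
Normalized counts on a log axis of the 16 members named by rule, with hα-syn(A53T) + Ang-(1-7) libraries left of hα-syn(A53T) libraries for each miRNA. Points are libraries and lines are group means (n = 3). Among the 3p arms, all but miR-466d-3p and miR-467a-3p have every Ang-(1-7) library under the lowest hα-syn(A53T) library. Among the 5p arms, miR-467c-5p and miR-466d-5p lie higher without overlap, and miR-467e-5p, miR-669a-5p and miR-669l-5p lie lower. Some members were named because their groups did not overlap, so this separation is partly set by the choice. Of all tested 3p members, 8 of 21 were lower without overlap (7 of 20 without miR-669e-3p) and 0 higher. Of 27 tested 5p members, 4 were lower and 2 higher, beside 14.0% lower and 14.2% higher among all tested miRNAs.

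Other 3p arms had values under those of hα-syn(A53T) mice without passing the adjusted threshold. miR-466d-3p had 131, 132 and 231 normalized counts with Ang-(1-7), against 212, 316 and 295 without it, a log2 fold change of -0.77 (limma adjusted p = 0.172). miR-467a-3p stood at 91.9, 62.8 and 178 with Ang-(1-7) and 151, 232 and 202 without it, a log2 fold change of -0.92 (limma adjusted p = 0.188). In both, Ang-(1-7) replicate 3 reached into the range of the hα-syn(A53T) libraries. Without that library miR-467a-3p passed the threshold (log2 fold change -1.33, limma adjusted p = 0.0334).

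miR-466f-3p had 47.9, 20.9 and 55.3 normalized counts with Ang-(1-7) and 99.4, 110 and 55.6 without it, so that the groups were separated by a narrow gap (log2 fold change -1.13, limma adjusted p = 0.149). miR-466i-3p, the A- and C-rich miRNA of the Cdk13 intron shown above, had 19.0, 15.4 and 14.5 with Ang-(1-7) and 39.0, 43.6 and 20.2 without it (log2 fold change -0.96, limma adjusted p = 0.165). It lies outside Sfmbt2, and its groups did not overlap either.

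miR-669e-3p was the only tested member with no library at 1 normalized count or more in one of the groups. Other members near the floor reached that value in all 3 libraries of a single group only. Examples are miR-669c-3p in hα-syn(A53T) libraries and miR-466a-5p in Ang-(1-7) libraries. These were kept, and miR-669c-3p is among the members counted above as lower at an unadjusted limma p under 0.05 and without overlap. miR-669e-3p had 0 reads in all 3 Ang-(1-7) libraries, against 6, 7 and 1 reads in hα-syn(A53T) libraries. Its hα-syn(A53T) mean of 4.55 normalized counts was 4.57 times a floor of 3 reads over the Ang-(1-7) group. This value leaves out the spread of the hα-syn(A53T) libraries, so it is not a lower bound on the change. Since it could pass the filter only through the group where it was higher, its p is not given. With no filter it was among the 4 members called, in place of miR-466m-3p.

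The most abundant members were 5p arms, and none of them passed the test. miR-467a-5p had 2669, 5612 and 2621 normalized counts with Ang-(1-7), against 2559, 2161 and 2680 in hα-syn(A53T) libraries. Ang-(1-7) replicate 2 stood far above the other 5 libraries, which lay close together and overlapped. The log2 fold change was 0.47 (95% interval -0.21 to 1.14, limma adjusted p = 0.395). miR-467b-5p, known to target lipoprotein lipase, was within 2 reads of it in every library.

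miR-467c-5p was likewise highest in that library, with 627, 1251 and 579 normalized counts with Ang-(1-7), against 493, 534 and 509 without it. Its groups did not overlap, but the log2 fold change of 0.59 had an interval of -0.09 to 1.27 (limma adjusted p = 0.278). miR-466d-5p was the other member higher without overlap, at 18.0, 43.0 and 17.2 with Ang-(1-7) and 9.23, 15.8 and 11.1 without it (log2 fold change 0.96, limma adjusted p = 0.228). All of miR-467a-5p, miR-467c-5p and miR-466d-5p were highest in Ang-(1-7) replicate 2.

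miR-669c-5p had 422, 435 and 319 normalized counts with Ang-(1-7), against 529, 366 and 298 without it (log2 fold change 0.01, 95% interval -0.61 to 0.63, limma adjusted p = 0.994). miR-467e-5p stood at 127, 141 and 123 with Ang-(1-7) and 175, 160 and 153.8 without it, with a log2 fold change of -0.32 (limma adjusted p = 0.464). The libraries of miR-669c-5p overlapped, and those of miR-467e-5p lay apart without passing the test.

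miR-669a-5p, the partner arm of miR-669a-3p and identical in values to miR-669p-5p, was tight within each group. It had 96.9, 107 and 84.4 normalized counts with Ang-(1-7), against 156, 155 and 149 in hα-syn(A53T) libraries. The groups did not overlap, with a log2 fold change of -0.67 (SE 0.25, limma adjusted p = 0.139). miR-669l-5p had 9.99, 7.71 and 10.9 with Ang-(1-7) and 27.7, 22.2 and 14.2 without it (log2 fold change -1.05, limma adjusted p = 0.139).

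Across all tested members, 20 of 21 3p arms had a negative log2 fold change, with a median of -0.86. Without miR-669e-3p, which had 0 reads with Ang-(1-7), it was 19 of 20 and -0.84. Members near the floor that reached 1 normalized count in all libraries of a single group only were kept. The 3p arms of other miRNAs were 49.1% negative, with a median of 0.01. The exception was miR-467b-3p, with a mean near 1 read. Among the 5p arms, 16 of 27 were negative, with a median of -0.19, beside 48.3% negative and a median of 0.02 for other 5p arms. The 5p arms differed by mean level. Negative were 2 of 6 at 100 normalized counts or more, 12 of 14 at 10 to under 100, and 2 of 7 under 10. No 5p arm was called by limma at the adjusted threshold, and 4 were lower at an unadjusted p under 0.05. The 6 tested members whose name gives no arm had a median of 0.26, and 2 were negative. Other miRNAs named without an arm were 75.6% negative, with a median of -0.48. All 54 tested members had a median of -0.51, and all 1065 tested miRNAs had a median of -0.04. These are descriptions, because members share sequence and reads and are not replicates of each other.

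**Figure D3:**
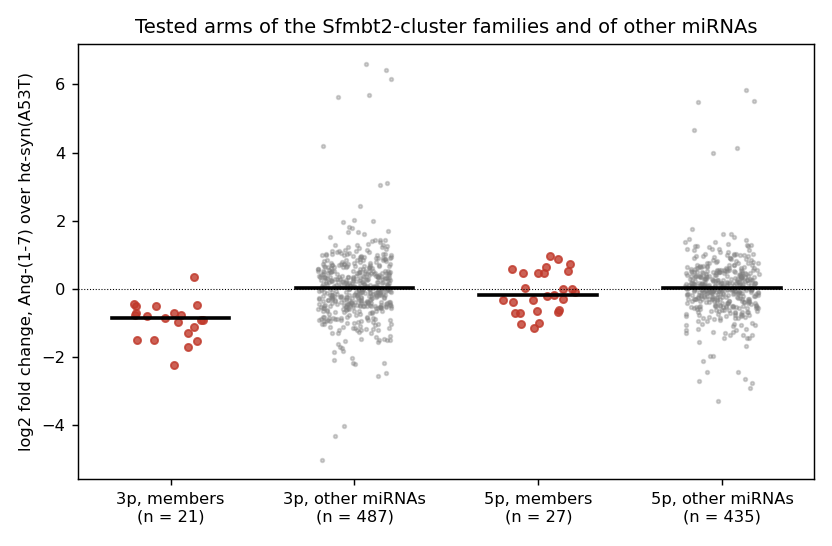
Log2 fold change, Ang-(1-7) over hα-syn(A53T), for the tested 3p and 5p arms of the families (red) and of other annotated miRNAs (grey). Points are miRNAs and black lines are medians. The 3p members lie mostly under 0 (median -0.86), the 5p members lie on both sides of it (median -0.19), and both sets of other miRNAs are centred near 0.

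By family, the arms lay as follows. In miR-669, 8 of 8 tested 3p arms (median -0.84, and 7 of 7 without miR-669e-3p) and 9 of 10 tested 5p arms (median -0.34) were negative. In miR-466, 8 of 8 3p arms were negative (median -1.05), but only 4 of 10 5p arms were (median 0.23). In miR-467, 3 of 4 3p arms (median -0.47) and 2 of 5 5p arms (median 0.47) were negative. The single tested 3p arm of miR-297, miR-297a-3p, had a log2 fold change of -0.76 (limma adjusted p = 0.253) and its 5p arms a median of 0.25. A set of identical values named in 2 families was counted under the first name, and the difference between families was not tested.

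The ratio of the arms of single hairpins was uneven between libraries. For miR-466d, 5p over 3p was 0.137, 0.325 and 0.0745 with Ang-(1-7) and 0.0435, 0.0499 and 0.0377 without it, with no overlap. For miR-467a it was 29.0, 89.4 and 14.7 with Ang-(1-7) and 17.0, 9.33 and 13.2 without it, so that Ang-(1-7) replicate 3 fell among the hα-syn(A53T) libraries. The ratios of miR-669a, miR-466c and miR-467c overlapped as well. Several of these arms share their values with arms of other hairpins, so a ratio need not describe a single hairpin.

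Members with negative values were found towards both ends of the cluster in the intron. Among tested members with a single hairpin in Sfmbt2 and values of their own, 11 of 12 3p arms and 13 of 15 5p arms were negative. The negative ones lay towards both ends of the 51.6 kb of the cluster, with miR-669e-3p among them. The choice left a gap from 14.6 to 39.1 kb, so the middle of the cluster is not covered. This choice leaves out miR-467a-5p and other 5p arms, and over all tested 5p arms 16 of 27 were negative. Members whose hairpins lie only in Sfmbt2 had a median log2 fold change of -0.63 (33 of 41 negative), and those with hairpins only elsewhere had a median of 0.26 (2 of 6 negative). The latter were miR-466i-3p (log2 fold change -0.96), miR-466i-5p (0.88) and members whose name gives no arm. Other miRNAs named without an arm had a median of -0.48. Place and arm cannot be told apart here, and the difference between these places was not tested.

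**Figure D4:**
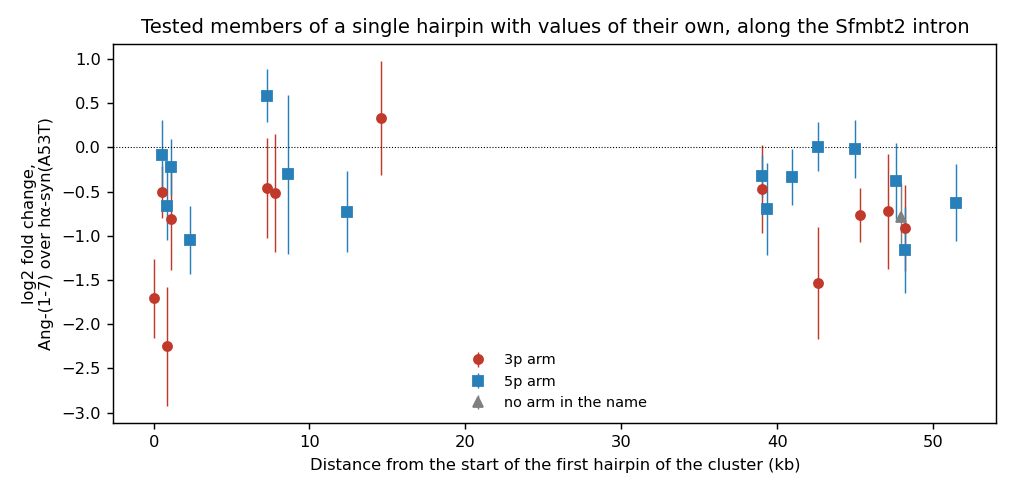
Log2 fold change, Ang-(1-7) over hα-syn(A53T), against distance in kb from the start of the first hairpin of the Sfmbt2 cluster, for tested members with a single hairpin and values of their own. Points are miRNAs and bars are standard errors from limma. Of the 3p arms (circles) 11 of 12 lie under 0, at both ends of the 51.6 kb, and of the 5p arms (squares) 13 of 15. The points leave a gap from 14.6 to 39.1 kb. Over all tested 5p arms, also those not shown, 16 of 27 were negative.

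A second imprinted group of miRNAs, the cluster of the Dlk1-Dio3 region that runs between miR-379 and miR-410, was set beside the families as a comparison. It had 61 members by the same count and 60 tested, of which 13 were negative. Its median log2 fold change was 0.35. By limma at the adjusted threshold, 4 of the 60 were higher and 0 lower, against 5.54% higher and 4.04% lower over all 1065 tested miRNAs. Its 3p arms (4 of 32 negative, median 0.45) and its 5p arms (9 of 28 negative, median 0.30) lay on the same side. The medians of the 2 clusters thus lay on opposite sides of 0 in these libraries, and their difference was not tested.

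Markers of other tissue differed between the libraries, and those of the Hox list overlapped between the groups. The Hox-cluster list of hindbrain and spinal cord (miR-10a-5p, miR-10b-5p, miR-196a-5p, miR-196b-5p and miR-615-3p) summed to 2230, 1374 and 31986 normalized counts with Ang-(1-7), against 13017, 75783 and 59761 without it. Of its 5 miRNAs, 1 was called lower, and this one, miR-196a-5p, was at 0 in every Ang-(1-7) library and entered the test through the hα-syn(A53T) libraries alone. miR-10b-5p had 1118, 577 and 21338 with Ang-(1-7), against 6887, 48662 and 39970 without it, and miR-10a-5p had 1073, 792 and 10386 with Ang-(1-7), against 5772, 25914 and 19341 without it. As in the 3p sums, Ang-(1-7) replicates 1 and 2 were lowest and hα-syn(A53T) replicates 2 and 3 highest. These miR-10 levels (the mean log2 value of the 2 miRNAs) were put in the model, an alternative added after the data were seen. In that fit limma called 0 members (4 at an unadjusted p under 0.05). The 3p median was -0.24 with 16 of 21 negative, and the 5p median was -0.25 with 15 of 27 negative. The medians of the 2 arms thus no longer lay apart. The members did not all move alike in this fit. miR-669a-3p and miR-466a-3p had log2 fold changes of -0.58 each and miR-467a-3p one of -0.04, whereas miR-466m-3p had -1.44, miR-466i-3p -1.15, miR-669a-5p -0.84 and miR-669l-5p -1.04, none past the adjusted threshold. Calls over all annotated miRNAs fell from 102 to 22 in this fit. The miR-10 level overlapped between the groups, since Ang-(1-7) replicate 3 lay above hα-syn(A53T) replicate 1. It was still lowest in Ang-(1-7) replicates 1 and 2, so with 6 libraries the fit cannot tell the miR-10 level and the treatment apart. The part of other tissue in the 3p levels was not tested.

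The muscle list was called lower for 4 of its 5 miRNAs, and summed to 15469 to 22275 normalized counts with Ang-(1-7), against 43012 to 86906 without it. The epithelial list was called higher for 5 of 5, at 160432 to 477761 with Ang-(1-7), against 2863 to 8497 without it. The red blood cell list was lower for 1 of 3, at 1542 to 1801 with Ang-(1-7), against 3609 to 6893 without it. No miRNA of these 3 lists was at 0 in either group, and their part in the values of the 4 families was not tested.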

How the data were processed

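Small RNA of the right SN was sequenced paired-end on a NovaSeq in 6 libraries. Per the labels and methods, the authors aligned the reads with Bowtie 1.2.3 (mm9 in the submitters' notes) and scaled them with DESeq2 1.10.1. How reads were trimmed and counted is not given in the sources used here. Each deposited signal value is a library's reads over its size factor (100% whole multiples of 1 read among annotated miRNAs, tolerance 1e-06). The 1231 predicted loci were not used. The authors' own fold changes, their errors, p-values and group means were not used either.

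limma 3.58.1 (R 4.3.3) was fitted with a trend on log2(value + 1) and tested on simulated data. Tables and figures were made with Python 3.11.15, pandas 2.3.3, scipy 1.17.1 and matplotlib 3.10.9. With 3 libraries against 3, an exact permutation test could not go below p = 0.1. The mm9 build differs from GRCm38, so only annotation and sequences were taken from GRCm38. Members and lists were chosen with earlier results of these data known. Members were named if among the 10 most abundant, past the threshold, or among the 8 largest changes without overlap at a mean of at least 10. Seed groups of 3 or more were also planned. Sequences were matched for 8 of the 76 entries only, none with a hairpin in Sfmbt2, and these 8 held 0 such groups. Seeds of the other entries could not be compared. Members outside this rule (miR-669e-3p, miR-467b-3p, miR-466l-3p, miR-297a-3p and those with printed sequences) were chosen after their values were seen. The alternatives changed the pseudocount (0.1 or 5), the filter (none, or 10 normalized counts), the scaling (library totals or upper quartile) or the block (replicate number), left out each library, or kept identical rows once. limma-voom, near copies counted once and the miR-10 covariate were added after the data were seen. The planned count tests (edgeR, DESeq2 and TMM factors) were not run. Annotated miRNAs and predicted loci of a column were scaled by different factors, so the columns were treated as normalized values. Reads worked out for the annotated miRNAs served depth, read counts, near copies and limma-voom. Same-numbered libraries of the groups had correlations of deviations of 0.12, -0.09 and 0.18, and nothing in the labels pairs them.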

Additional observations from a re-analysis of the deposited data

How the results depend on the processing

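The direction of the 16 named members held in every alternative apart from miR-669c-5p, whose log2 fold change ran from -0.43 to 0.23, and no result reversed on a called value. The count of members past the adjusted threshold was 4, and 0 to 4 with a library left out. It was 1 with a pseudocount of 0.1 and 0 with the miR-10 covariate, and 3 or 4 in the other alternatives. With no filter the 4 held miR-669e-3p in place of miR-466m-3p. Over all annotated miRNAs the count was 102, with 27 to 111 when a library was left out and 22 with the miR-10 covariate. The median log2 fold change of the tested members was -0.51, with -0.58 to -0.28 when a library was left out and -0.21 with the miR-10 covariate. The median of the 3p members stayed negative, from -1.23 to -0.24, and that of the 5p members ran from -0.32 to -0.02. The 3p median lay under the 5p median in every setting but the miR-10 covariate, where they were -0.24 and -0.25. Scaling to the upper quartile shifted the median of all tested miRNAs to -0.14, and the 3p members to -0.92. With the replicate number as a block, 3 members were called, the loss being miR-466m-3p, and 112 over all miRNAs. Same-numbered libraries did not all deviate together, so the numbers were not taken as pairs. In limma-voom 3 members were called, again without miR-466m-3p. edgeR, DESeq2 and TMM factors were not run. Depth limits the 20 members with a mean of 1 to 10 normalized counts and the 9 under 1, where single reads move a value visibly.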
